A study of Mus musculus with 2 samples.

Results

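The genes described here are 8 mouse genes tied to NOTCH2 signaling and to the ESAM-high state of splenic type 2 conventional dendritic cells (cDC2). They were taken by symbol, as Notch2, Dtx1, Hes1, Esam, Cd4, Clec4a4, Ltb and Ltbr, and all 8 were found among the 32285 genes of the count files. The study sorted live CD45.2+ CD11c+ cells from spleens and made 1 single-cell RNA library per genotype. The first library came from wild-type mice (WT, H2-Aa +/+) and the second from H2-Aa cit/cit mice, which carry a chemically induced splice mutation of the MHC-II alpha chain gene in every cell and are called mutant here. Each library pooled 3 naive females of 4 months, and the mouse of origin of a cell was not recorded. The WT library held 7814 cells and 51020804 transcript counts (unique molecular identifiers, UMIs), with a median of 5492 UMIs per cell. The H2-Aa cit/cit library held 11525 cells and 72652201 UMIs, with a median of 5633 UMIs per cell. Since 1 library stood for each genotype, no difference could be tested, and every interval given is a 95% interval for counting error alone.

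NOTCH2 is a surface receptor. When a ligand on a neighboring cell binds it, ADAM10 and the gamma-secretase complex cut it, and the freed intracellular part joins the DNA-binding protein RBPJ to switch on targets such as Hes1, a transcriptional repressor, and Dtx1, which encodes the ubiquitin ligase Deltex 1. In the mouse spleen, NOTCH2 signaling is known to be needed for the cDC2 that carry the adhesion molecule ESAM. These cells sit in the bridging channels and carry CD4 and the lectin receptor DCIR2, encoded by Clec4a4, whereas ESAM-low cDC2 resemble monocytes more closely and carry CCR2. Lymphotoxin, whose membrane-bound form contains the beta chain encoded by Ltb, binds the lymphotoxin beta receptor (Ltbr), which signals through the noncanonical NF-kB pathway and is known to maintain the same splenic cells.

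On the GRCm38 build, Notch2 lies on chromosome 3 from 98013527 to 98150361 and has 34 exons. Dtx1 is on chromosome 5 (120680202 to 120711927), Hes1 on chromosome 16 (30064384 to 30067796), Esam on chromosome 9 (37528078 to 37538319) and Ltb on chromosome 17 (35194439 to 35196320). Chromosome 6 holds Cd4 (124864692 to 124888221), Clec4a4 (122990367 to 123024105) and Ltbr (125306571 to 125313885). The 50-base windows of the last 500 transcript bases, the part that 3′ libraries read, were shared with other genes in 0 of the 8 members. Notch2 overlaps the predicted transcripts Gm42819 and Gm42820 on its own strand, and Ltb overlaps Mir6973a, so reads in the shared parts could not be told apart by gene.

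Promoters of the members were searched for motifs where a sequence was at hand, which left out Hes1, Esam, Cd4 and Clec4a4. Of the members searched, Notch2 and Ltbr did not differ by 2-fold between the cDC2 gates described further on. The search therefore does not address what the differing members share. RefSeq promoter sequences on GRCm38.p6 were at hand for 4 of the 8 members (Notch2, Dtx1, Ltb and Ltbr). Their 250 bases before the start site were searched on both strands for TGGGAA, the core recognized by RBPJ, for the longer GTGGGAA that contains it, and for the NF-kB motif. Over 32851 mouse promoters, 21.6% of windows held the core, 5.42% the longer form and 3.9% an NF-kB match. Neither form of the RBPJ motif was found in the windows of the 4 members, but the whole Dtx1 window lies within GENCODE exons, so no sequence before the first exon of that gene was searched. The NF-kB motif was found in those of Notch2 and Ltb, the only windows among the 4 with a match, and these are printed up to the first annotated exon with the match in capitals. The Notch2 stretch is chr3:98013288-98013526 and the Ltb stretch is chr17:35194257-35194438, both on the plus strand. The match of Notch2 reads as the motif on both strands and that of Ltb on the minus strand.
Notch2: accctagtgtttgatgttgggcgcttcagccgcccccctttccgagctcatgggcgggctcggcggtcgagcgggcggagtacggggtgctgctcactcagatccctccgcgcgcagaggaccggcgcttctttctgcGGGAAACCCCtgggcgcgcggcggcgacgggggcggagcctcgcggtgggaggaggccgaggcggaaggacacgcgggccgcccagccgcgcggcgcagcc
Ltb: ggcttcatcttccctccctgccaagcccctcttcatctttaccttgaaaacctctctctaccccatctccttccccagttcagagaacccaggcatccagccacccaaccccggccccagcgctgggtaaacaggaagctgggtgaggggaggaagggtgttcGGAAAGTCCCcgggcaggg
A match of letters is a description of the sequence, and no binding was measured.

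Cells were placed in classes by counting how many genes of a marker list had a UMI, and no member gene was used in a gate. Among cells with at least 2 of 13 cDC2 markers and few markers of other cells, Ffar2-positive cDC2 had a UMI of Ffar2, a receptor for short-chain fatty acids, and 0 of Ccr2, a chemokine receptor. Ccr2-positive cDC2 had the reverse, and double-positive and double-negative cDC2 had both or neither. The Ffar2-positive gate held 1513 WT and 3925 mutant cells (median 7917 and 6699 UMIs), and the Ccr2-positive gate 139 and 403 cells (median 10038 and 8154 UMIs). Levels are given as CPM, the UMIs of a gene per 1000000 UMIs summed over all cells of a class. Genes of the sort were detected. Ptprc, which encodes CD45, had a UMI in 93.3% of the WT and 96.8% of the mutant cells, and Itgax, which encodes CD11c, in 56.3% and 62.5%. H2-Aa itself was at 5410 CPM in the WT and 66.2 CPM in the mutant library. Sirpa, the defining surface marker of cDC2, was at 410 and 346 CPM in Ffar2-positive and at 201 and 162 CPM in Ccr2-positive cDC2. Xcr1, which defines cDC1, was at 2.02 and 2.62 CPM and at 5.28 and 1.82 CPM. Sirpa is among the 13 cDC2 markers, and Xcr1 is among the markers used to set cDC1 aside. Their levels were therefore partly fixed by the gates.

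Of the 8 members, 6 were higher by at least 2-fold in Ffar2-positive than in Ccr2-positive cDC2 of the WT library, and the receptors Notch2 and Ltbr were not. Those 6 were Dtx1, Cd4, Clec4a4, Esam, Ltb and Hes1. In the mutant library the count was 5 of 8, without Hes1. A 2-fold rise was seen in 8.29% of the 8756 genes with at least 10 CPM in either WT sum and in 5.65% of 8630 such genes in the mutant library. A 2-fold fall was seen in 5.66% and 4.22% of genes and in 0 of 8 members. The 8 members had a median log2 ratio of 2.35 in WT and 2.41 in mutant cells, beside 0.06 and 0.05 over all genes past the minimum. All 8 members passed the minimum, but Dtx1 and Esam passed it through the Ffar2-positive sum alone and could therefore pass only in that direction. With clusters in place of gates, 3 members in WT (Dtx1, Esam and Clec4a4) and 4 in mutant cells (these and Cd4) were past 2-fold, beside 4.79% and 3.25% of all genes. There the log2 ratio of Ltb was 0.56 and 0.20, and that of Cd4 0.61 and 1.14.

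**Figure D1:**
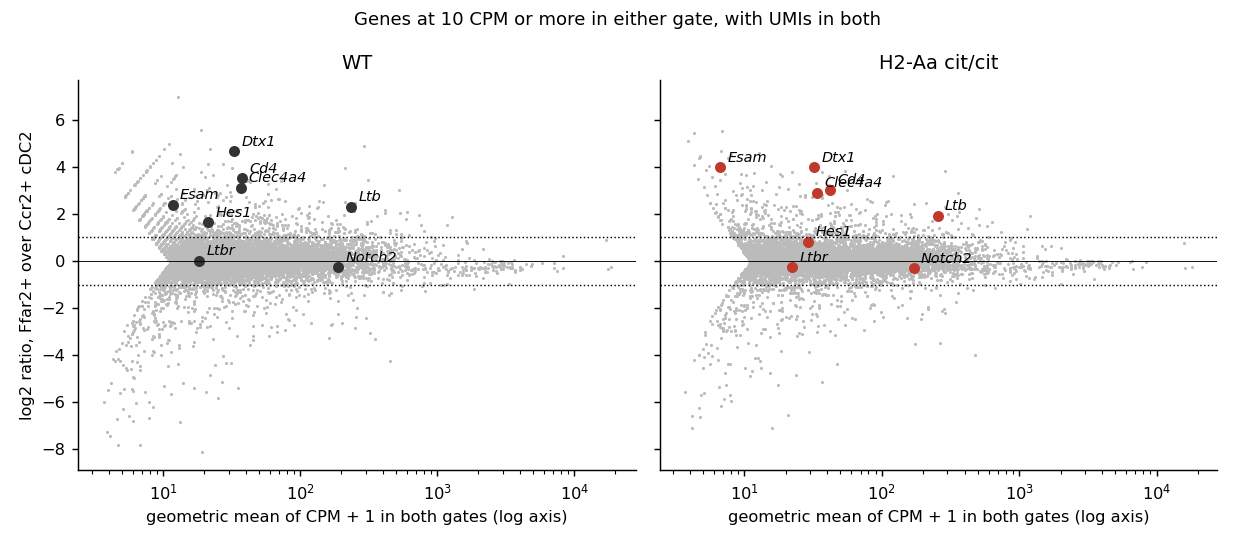
Log2 ratio of Ffar2-positive over Ccr2-positive cDC2 (vertical axis) against the mean level (horizontal axis), 1 panel per library. Grey points are genes with at least 10 CPM in either gate and UMIs in both, and the named points are the members. Dtx1, Cd4 and Clec4a4 lie far above 0 in both panels, whereas Notch2 and Ltbr lie near 0.

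Dtx1, the NOTCH target, showed a wide separation of the gates. It had 153 CPM in WT and 119 CPM in mutant Ffar2-positive cDC2 (1816 and 3276 UMIs), against 6.03 and 7.57 CPM in Ccr2-positive cDC2 (8 and 25 UMIs). Both libraries thus had high values in the former and low values in the latter gate, with log2 ratios of 4.66 (interval 3.68 to 5.88) and 3.98 (3.41 to 4.61). After each cell was thinned to 1500 UMIs, a Dtx1 UMI was found in 18.4% and 15.3% of Ffar2-positive cells. The share was 0.763% and 0.750% in Ccr2-positive cDC2 and 0.949% and 1.34% in cDC1, taken here as the class that should lack it. Without thinning, the shares were 47.2% and 38.3% of Ffar2-positive and 5.04% and 4.71% of Ccr2-positive cells. The thinned Ccr2-positive shares rested on 1 of 131 and 3 of 400 cells, and whether they were background was not tested.

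Hes1, the other NOTCH target, was less separated. It was at 35.5 and 37.5 CPM in Ffar2-positive and at 11.3 and 21.2 CPM in Ccr2-positive cDC2 of WT and mutant cells, and the Ccr2-positive values rested on 15 and 70 UMIs. The log2 ratios were 1.65 (0.91 to 2.50) and 0.82 (0.47 to 1.19). Only the first was past 2-fold, and the lower bound of its interval was not. With every cell thinned to 1500 UMIs, the WT ratio fell to 0.51. A Hes1 UMI was found in 5.09% and 5.15% of thinned Ffar2-positive cells, in 3.05% and 3.75% of Ccr2-positive cells and in 2.85% and 4.18% of cDC1. Unthinned, it was found in 21.5% and 20.6% of Ffar2-positive and in 8.63% and 12.7% of Ccr2-positive cells.

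The surface molecules of the ESAM-high state were all higher in the Ffar2-positive gate. Cd4, the coreceptor that splenic cDC2 share with helper T cells, was at 121 and 116 CPM against 10.6 and 14.2 CPM, with log2 ratios of 3.51 (2.76 to 4.39) and 3.02 (2.61 to 3.47). Of the Ffar2-positive cells with a Cd4 UMI, 7 of 682 in WT (1.03%) and 11 of 1642 in mutant (0.670%) also had a UMI of a CD3 gene. Clec4a4 was at 104 and 88.3 CPM against 12.1 and 11.8 CPM, a log2 ratio of 3.11 (2.40 to 3.92) in WT and 2.90 (2.45 to 3.40) in mutant cells. Thinned to 1500 UMIs, Cd4 was detected in 15.8% and 14.6% of Ffar2-positive cells, in 0.763% and 3.25% of Ccr2-positive cells and in 1.14% and 1.67% of cDC1. Clec4a4 was detected in 13.4% and 11.6%, in 1.53% and 1.75%, and in 0.759% and 0.669% of the same classes. Without thinning, Cd4 was detected in 45.1% and 41.8% of Ffar2-positive and 5.76% and 9.43% of Ccr2-positive cells, and Clec4a4 in 49.0% and 41.7% against 7.91% and 8.19%.

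Esam, which encodes an adhesion molecule of endothelial cells, platelets and this cDC2 subset, was at 23.8 and 19.1 CPM in Ffar2-positive cDC2 (283 and 526 UMIs). In Ccr2-positive cDC2 it was at 4.53 and 1.21 CPM, from 6 and 4 UMIs. The log2 ratios were 2.39 (1.25 to 3.85) and 3.98 (2.62 to 5.86), whose intervals overlap widely. Thinned to 1500 UMIs, the WT ratio was 0.95, under 2-fold. An Esam UMI was found in 2.89% and 3.28% of thinned Ffar2-positive cells, in 1.53% and 0.250% of Ccr2-positive cells and in 1.33% and 0.167% of cDC1. The unthinned shares were 15.1% and 11.5% of Ffar2-positive and 4.32% and 0.993% of Ccr2-positive cells. Cdh5, a defining endothelial gene, had 7 and 8 UMIs in all Ffar2-positive cells (0.589 and 0.291 CPM), and the platelet gene Itga2b had 5 and 6 UMIs (0.420 and 0.218 CPM). The summed endothelial list was nevertheless at 161 and 146 CPM against 108 and 113 CPM in Ccr2-positive cDC2, mostly from Pecam1, which dendritic cells also express.

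Ltb was at 522 and 495 CPM in Ffar2-positive and at 106 and 131 CPM in Ccr2-positive cDC2, with log2 ratios of 2.30 (2.06 to 2.56) and 1.92 (1.78 to 2.06). It was found in 51.6% and 50.3% of thinned Ffar2-positive cells, in 14.5% and 19.0% of Ccr2-positive cells and in 7.78% and 7.02% of cDC1. Unthinned, the Ltb shares were 90.1% and 88.7% against 47.5% and 48.4%. Its receptor Ltbr did not separate the gates. Ltbr was at 17.4 and 19.6 CPM against 17.3 and 23.3 CPM, and its log2 ratios were 0.00 (−0.62 to 0.69) and −0.25 (−0.60 to 0.11).

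Notch2 was slightly lower in the gate whose cells had more of its target Dtx1. Its level was 172 and 152 CPM in Ffar2-positive and 205 and 189 CPM in Ccr2-positive cDC2, with log2 ratios of −0.26 (−0.44 to −0.07) and −0.31 (−0.43 to −0.18). This direction turned when clusters were used in place of gates (0.16 and 0.21), the second being the one rich in Ccr2, Mgl2 and Cd209a. Another cDC2 cluster, with more Ccr2 (189.8 against 88.7 CPM over both libraries), was left out of that comparison. Notch2 was at 208 and 186 CPM there, above the 193 and 173 CPM of the cluster rich in Ffar2. The intervals of these levels overlapped in both libraries. Against that other cluster the direction did not turn. At 1500 UMIs per cell the shares of cells with a Notch2 UMI overlapped, at 21.1% and 20.3% of Ffar2-positive and 23.7% and 20.8% of Ccr2-positive cells, beside 18.6% and 15.9% of cDC1. Unthinned, they were 65.0% and 58.1% against 76.3% and 73.0%.

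Markers of other cells also differed between the gates. The 10 pDC markers summed to 399 and 330 CPM in Ffar2-positive and 979 and 994 CPM in Ccr2-positive cDC2, where Tcf4 gave the most UMIs, and 9 or 10 of them had a UMI in each. The 10 cDC1 markers summed to 65.8 and 61.5 CPM against 284 and 224 CPM, with 9 or 10 detected and Clec9a leading in the Ccr2-positive gate. The 7 macrophage markers summed to 227 and 216 CPM against 71.7 and 83.9 CPM, and most of this was Adgre1. The 8 T cell markers summed to 10.3 and 7.64 CPM against 43.0 and 18.8 CPM, mostly from Il7r, while Cd3e had 0 UMIs in both Ccr2-positive sums and 2 and 8 in the Ffar2-positive sums. The 6 monocyte-like markers summed to 192 and 169 CPM against 184 and 162 CPM, and the 10 maturation markers to 230 and 131 CPM against 198 and 122 CPM. The part of these genes in the members' ratios was not tested. Without the cells of the highest doublet scores, 6 members were past 2-fold in WT and 5 in the mutant library. Of all genes, 8.71% and 5.69% were higher by 2-fold in that setting.

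Dtx1, Cd4, Clec4a4 and Ltb were lower in cells with Ccr2 UMIs than in cells with 0, over all 4 cDC2 gates. With 0, 1, 2 and at least 3 Ccr2 UMIs, Dtx1 was at 144, 22.7, 9.78 and 6.53 CPM in WT and at 110, 20.3, 9.39 and 13.9 CPM in mutant cells. Cells with a single Ccr2 UMI were already far below cells with 0. Ltb fell more gradually, from 511 through 271 and 186 to 118 CPM in WT and from 486 through 282 and 188 to 132 CPM in mutant cells. Cd4 went from 118 through 64.7 and 16.3 to 18.9 CPM and from 113 through 39.8 and 18.8 to 19.8 CPM. Clec4a4 went from 95.7 through 38.5 and 16.3 to 11.6 CPM and from 83.4 through 35.9 and 20.5 to 19.3 CPM. From 2 to at least 3 Ccr2 UMIs, Dtx1 in mutant cells and Cd4 in either library did not fall further. Notch2 did not follow, at 168, 192, 173 and 216 CPM in WT and 153, 156, 177 and 184 CPM in mutant cells. The bin of 2 Ccr2 UMIs held 34 WT cells, and that of 1 UMI held 69.

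Between the outer bins of Ffar2 UMIs the differences of these members were smaller. From 0 to at least 3 Ffar2 UMIs, Dtx1 went from 81.2 through 111 and 158 to 151 CPM in WT and from 51.0 through 91.3 and 102 to 126 CPM in mutant cells. Between the outer bins, Clec4a4 went from 48.6 to 107 CPM and from 46.1 to 90.8 CPM, Cd4 from 78.1 to 119 CPM and from 71.6 to 113 CPM, Ltb from 361 to 496 CPM and from 342 to 481 CPM, and Esam from 14.3 to 23.1 CPM and from 10.4 to 19.5 CPM. The median depth went from 6795 to 8673 UMIs in WT and from 6363 to 7210 UMIs in mutant cells between the same bins, and its part in the steps was not tested.

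**Figure D2:**
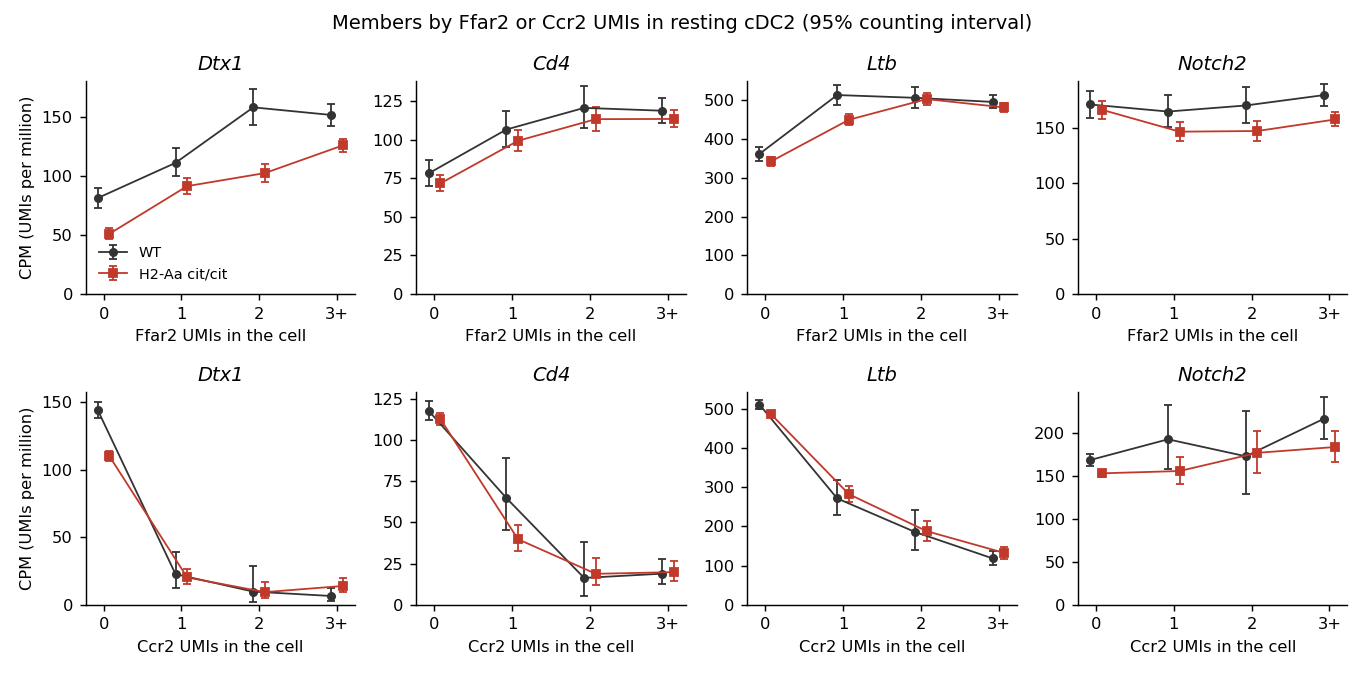
Level of Dtx1, Cd4, Ltb and Notch2 (CPM, vertical axis, with 95% counting intervals) by the number of Ffar2 or Ccr2 UMIs per cell (horizontal axis) over all cDC2 gates, for both libraries. Dtx1, Cd4 and Ltb are lower in cells with Ccr2 UMIs than in cells with 0, whereas Notch2 is not.

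Double-positive cDC2 (90 WT and 296 mutant cells) lay between the gates for most members. Dtx1 was at 18.3 and 25.8 CPM, Cd4 at 58.0 and 45.4 CPM, Clec4a4 at 29.0 and 45.0 CPM and Ltb at 252 and 303 CPM. Esam was at 1.07 and 2.95 CPM, from only 1 and 8 UMIs (intervals 0.03 to 5.98 and 1.28 to 5.82 CPM). These intervals overlapped those of Ccr2-positive cells. The cells with top doublet scores made up 6.67% and 14.2% of this gate. They made up 6.08% and 11.6% of the Ffar2-positive and 4.32% and 2.98% of the Ccr2-positive gate. The number of such cells was set beforehand from library size, at 488 of 7814 WT and 1063 of 11525 mutant cells. Their shares in the 2 libraries therefore differ in part by construction. The part of doublets in the levels of double-positive cells was not tested. Double-negative cDC2 (546 and 1164 cells) lay nearer to Ffar2-positive than to Ccr2-positive cells for these genes. Dtx1 at 113 and 72.7 CPM, Clec4a4 at 64.0 and 63.2 CPM and Ltb at 469 and 448 CPM were nevertheless below the Ffar2-positive levels with intervals apart in both libraries. Cd4 was at 106 and 100.3 CPM and Esam at 18.4 and 15 CPM.

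**Figure D3:**
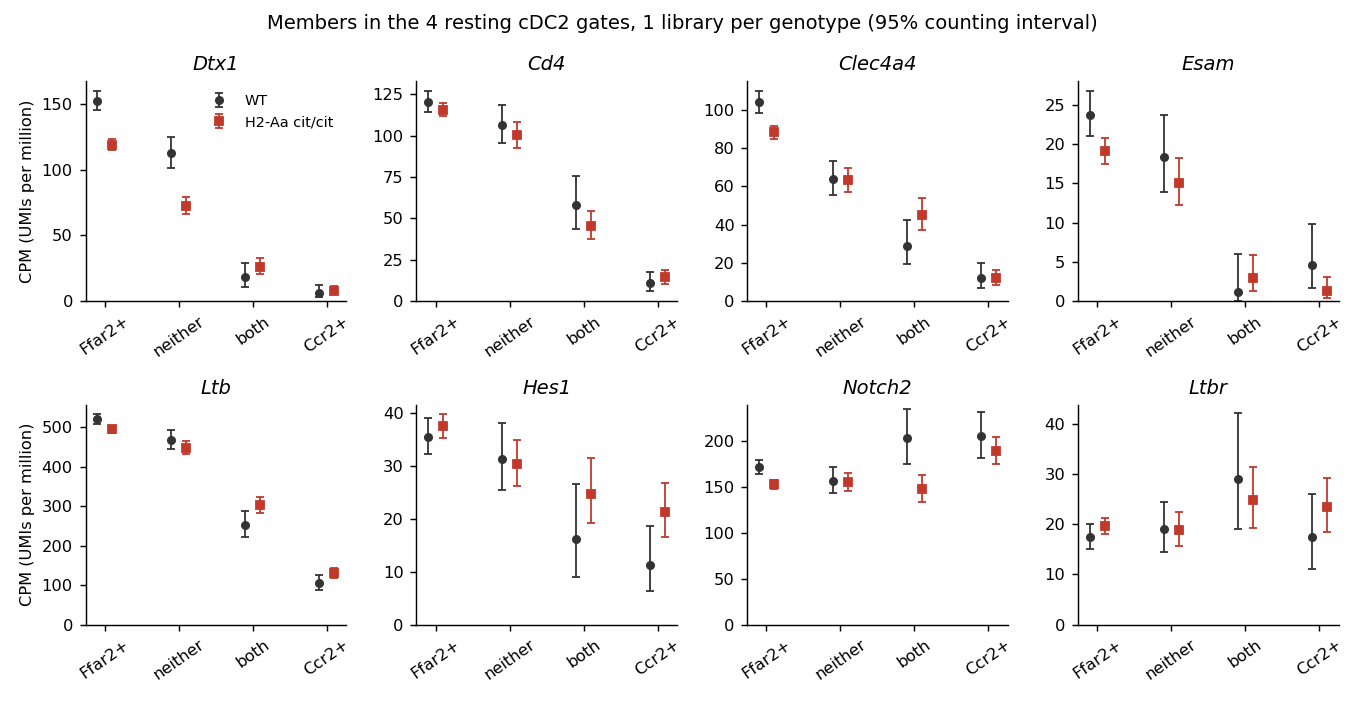
Level of the 8 members (CPM, with 95% counting intervals) in the 4 cDC2 gates of each library. Each point is 1 gate of 1 library. The points for Dtx1, Cd4, Clec4a4, Ltb and Esam are high in Ffar2-positive and double-negative cDC2 and low in Ccr2-positive cDC2, and those for Notch2 and Ltbr show no such drop.

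Over the 13 classes with at least 50 cells in each library, the members did not share a single peak. Ltb alone was highest in Ffar2-positive cDC2, at 522 and 495 CPM, and its interval stood apart from that of the next class, double-negative cDC2. Clusters did not give this peak. In the cDC2 cluster with more Ccr2, Ltb was at 515 and 417 CPM, against 458 and 453 CPM in the cluster rich in Ffar2. Those intervals were apart in both libraries, in opposite directions. A further cDC2 cluster, with little Ccr2 (10.3 CPM), had 496 CPM of Ltb in the mutant library and less in WT. The mutant interval overlapped that of the cluster rich in Ffar2. Esam was highest in mature cells with 0 cDC1 markers, at 59.7 and 47.6 CPM, followed by mature cells with cDC1 markers at 29.4 and 41.1 CPM, and the intervals of these classes overlapped in the mutant library. These are cells with at least 5 of 10 maturation genes such as Ccr7 and Fscn1. Relative to Ffar2-positive cDC2, Esam was higher there by a log2 ratio of 1.33 in WT and 1.32 in mutant cells, while Hes1 was at 7.40 and 7.87 CPM, Clec4a4 at 13.1 and 18.3 CPM and Ltb at 206 and 243 CPM. The other 7 members were lower in these mature cells than in Ffar2-positive cDC2 of both libraries.

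Within the Ffar2-positive gate, Esam and Ltb were higher in cells with more maturation genes in both libraries. With 0, 1, 2 and 3 or 4 maturation markers per cell, Esam was at 16.5, 23.0, 27.7 and 43.1 CPM in WT and at 16.6, 17.8, 27.9 and 41.7 CPM in mutant cells. The intervals of the outer bins did not overlap (12.9 to 20.8 against 33.0 to 55.3 CPM in WT, and 14.8 to 18.7 against 31.8 to 53.8 CPM in mutant cells). Ltb went from 441 to 644 CPM in WT and from 452 to 633 CPM in mutant cells between the outer bins, also with intervals apart. Dtx1 did not rise along the same bins, at 157, 160, 133 and 144 CPM in WT and 121, 116, 115 and 115 CPM in mutant cells. Other members had outer bins with intervals apart in 1 library only. In mutant cells Cd4 went from 111 to 148 CPM and Hes1 from 39.3 to 24.0 CPM. In WT, Notch2 went from 180 to 146 CPM and Ltbr from 18.8 to 8.48 CPM. Without cells of at least 2 maturation markers, a setting chosen after seeing the data, the log2 ratio of Esam in Ffar2-positive over Ccr2-positive cDC2 was 1.87 in WT and 4.07 in mutant cells.

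Dtx1, Clec4a4 and Notch2 were highest in cells with less than 8% of UMIs from ribosomal protein genes, a class rich in Wdfy4. Its cells were shallow, with medians of 2776 and 2156 UMIs. There Dtx1 was at 193 and 172 CPM and Clec4a4 at 132 and 129 CPM, both with intervals apart from those of Ffar2-positive cDC2, the next class. Notch2 was at 313 and 289 CPM, followed by monocyte-like cells at 288 and 241 CPM, and the 2 intervals overlapped in WT. Ltb was lower in these cells than in Ffar2-positive cDC2, at 164 and 195 CPM. Beside these, the median log2 ratio of all genes past the minimum, in low-ribosomal cells over Ffar2-positive cDC2, was 0.37 in WT and 0.41 in mutant cells. In WT the ratios of Dtx1 (0.34) and Clec4a4 (0.35) were near this median, and that of Notch2 was 0.87.

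Cd4 was high in a second lineage. Plasmacytoid DC (pDC) had 145 and 122 CPM and low-ribosomal cells 130 and 146 CPM, with overlapping intervals, whereas Dtx1 in pDC was at 36.8 and 43.6 CPM and Clec4a4 at 14.7 and 13.6 CPM. Hes1 was highest in monocyte-like cells (80 and 84 cells), at 114 and 51.2 CPM, and in the mutant library its interval overlapped that of macrophages. Ltbr was also highest there, at 31.5 and 27.9 CPM, with an interval overlapping that of double-positive cDC2. The low end was cDC1 for Cd4 (8.58 and 8.35 CPM) and Clec4a4 (5.05 and 5.10 CPM) and Ccr2-positive cDC2 for Dtx1. Proliferating cells without cDC1 genes had Dtx1 at 146 and 115 CPM, close to Ffar2-positive cDC2, but Cd4 at 48.8 and 51.3 CPM.

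**Figure D4:**
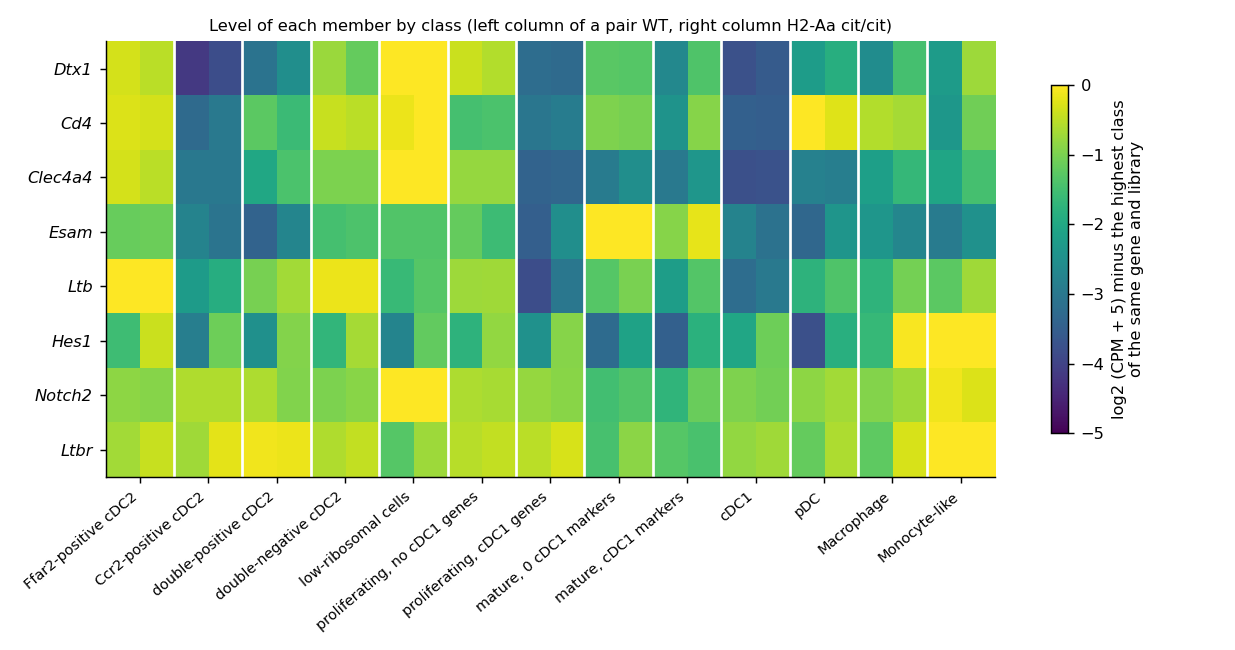
Level of each member in 13 classes and both libraries, shaded relative to the highest class of that gene. The brightest squares (a value of 0) lie in low-ribosomal cells for Dtx1, Notch2 and Clec4a4, in mature cells for Esam, in Ffar2-positive cDC2 for Ltb and in monocyte-like cells for Hes1 and Ltbr.

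The mutant library was then set beside WT within the gates. In Ffar2-positive cDC2, 0 of 8 members differed by 2-fold, beside 0.958% of 8453 genes that did, and the median log2 ratio of the members was −0.12 beside −0.01 over all genes. Dtx1 was lower in mutant cells by a log2 ratio of −0.36 (−0.44 to −0.27), Esam by −0.31 (−0.53 to −0.10), Clec4a4 by −0.24 (−0.34 to −0.14), Notch2 by −0.17 (−0.25 to −0.09) and Ltb by −0.08 (−0.12 to −0.03). The intervals of Cd4 (−0.06, from −0.15 to 0.03), Hes1 (0.08, from −0.08 to 0.25) and Ltbr (0.17, from −0.07 to 0.41) included 0. With every cell thinned to 1500 UMIs, Esam turned to 0.19. The maturation markers in this gate summed to 230 CPM in WT and 131 CPM in mutant cells, and 13.7% and 6.90% of its cells lay in the mature cluster. In bins of equal maturation marker number (0, 1, 2, and 3 or 4), Esam was at 16.5 and 16.6, 23.0 and 17.8, 27.7 and 27.9, and 43.1 and 41.7 CPM in WT and mutant cells, with overlapping intervals in each bin. The Dtx1 values given above were lower in mutant cells in each bin. Their intervals were apart with 0 and 1 markers and overlapped in the other bins. The part of maturation in either genotype ratio was not tested. All these intervals leave out the spread between mice, which 1 library per genotype does not give.

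In Ccr2-positive cDC2, 6 members reached 10 CPM and 0 of them differed by 2-fold, beside 3.16% of 8483 genes. Hes1 was higher in mutant cells by a log2 ratio of 0.91 (0.09 to 1.82) and Ltb by 0.31 (0.03 to 0.59). The ratio of Hes1 was 1.03 as a mean over cells and −0.03 with thinned counts. The intervals of Notch2 (−0.12), Cd4 (0.43), Clec4a4 (−0.03) and Ltbr (0.43) included 0, and the WT sums behind them were of 14 to 272 UMIs. Dtx1 and Esam stayed below 10 CPM in this gate of both libraries, with 8 and 25 UMIs of Dtx1 and 6 and 4 UMIs of Esam. The cluster rich in Ccr2, Mgl2 and Cd209a gave another picture for Dtx1. Its WT cells had 43 Dtx1 UMIs (8.98 CPM, interval 6.50 to 12.1) and its mutant cells 450 (26.1 CPM, 23.7 to 28.6). From the Ffar2-positive gate came 205 of its 534 WT and 1221 of its 2302 mutant cells, whose part was not tested.

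Dtx1 was also lower in mutant double-negative cDC2, from 113 to 72.7 CPM, a log2 ratio of −0.63 (−0.83 to −0.43). In proliferating cells without cDC1 genes, Esam had 23.6 CPM in WT and 12.8 CPM in mutant cells, a log2 ratio of −0.89 (−1.42 to −0.36). Cd4 was higher in mutant mature cells with cDC1 markers, at 75.7 CPM against 22.7 CPM in WT, a log2 ratio of 1.74 (1.38 to 2.10), and in monocyte-like cells, at 66.5 against 24.5 CPM (1.44, from 0.61 to 2.38). These classes held 191 and 633, and 84 and 80 cells of the mutant and WT libraries. Top doublet scores made up 28.3% and 11.1%, and 20.2% and 15% of them. In the first class 940 of 8514 genes were higher by 2-fold in mutant cells and 366 lower. In the second class these were 878 and 585 of 8860. Of the mature class with cDC1 markers, 35.5% in WT and 83.8% in the mutant library lay in 1 mature cluster. Over all cells of that cluster, Cd4 was at 89.6 and 109 CPM. Another mature cluster held 52.8% and 6.81% of the class, and Cd4 was at 8.02 and 0 CPM there (42 and 0 UMIs). The clusters that made up the gates were not alike in the libraries. Of the Ffar2-positive gate, 53.1% in WT and 50.4% in the mutant library lay in the cluster rich in Ffar2, and 13.5% and 31.1% lay in the cluster rich in Ccr2, Mgl2 and Cd209a. For the double-negative gate these shares were 16.1% and 22.4%, and 20.7% and 41.1%. Dtx1 was at 207 and 176 CPM in the former cluster and at 8.98 and 26.1 CPM in the latter. The part of this in the genotype ratios was not tested.

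**Figure D5:**
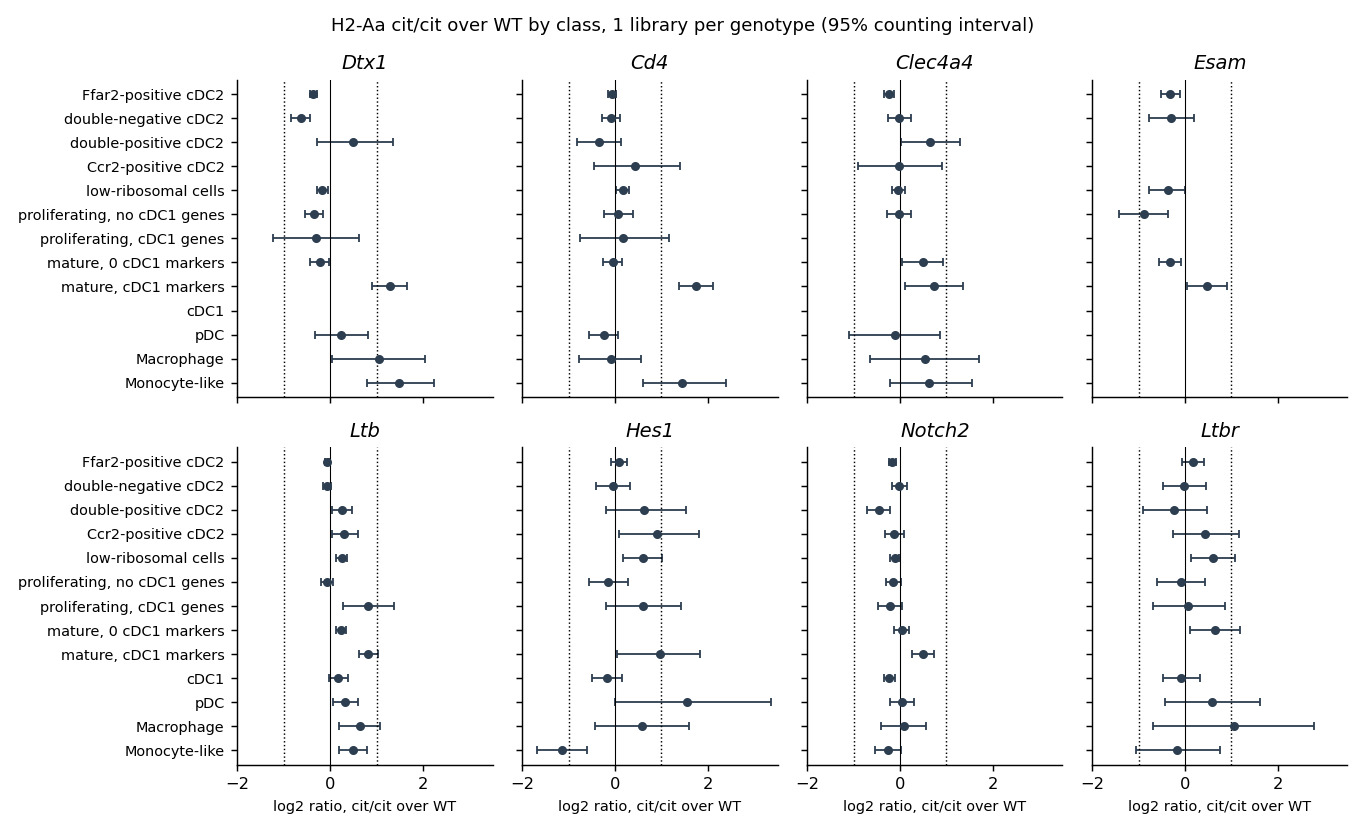
Log2 ratio of H2-Aa cit/cit over WT (horizontal axis, with 95% counting intervals) for each member with at least 10 CPM in either library, by class. In Ffar2-positive cDC2 all points lie within 1 unit of 0, and the points past 1 unit lie in mature cells with cDC1 markers, pDC, macrophages and monocyte-like cells.

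Among other genes of the NOTCH pathway past the minimum, few differed by 2-fold between the gates. Of 45 further genes, 32 in WT and 31 in mutant cells passed 10 CPM. In WT, 1 was higher by 2-fold (Jag1, a NOTCH ligand, with 208 against 2 UMIs) and 2 were lower (Aph1b, a gamma-secretase subunit, log2 ratio −1.20, and Mib2, a ubiquitin ligase for NOTCH ligands, −1.10), and in mutant cells 0 were in either direction. The median log2 ratio was 0.00 and 0.13, beside 0.06 and 0.05 over all genes. Of all genes, 14% and 9.87% were past 2-fold in either direction. Jag1 had 17.5 against 1.51 CPM in WT (log2 ratio 3.54, from 1.66 to 6.59) and 9.20 against 0.909 CPM in mutant cells, where it missed the minimum, and in WT it could pass only as higher. Rbpj, the partner of cleaved NOTCH, was lower in Ffar2-positive cells, at 117 and 127 CPM against 185 and 185 CPM, which is under 2-fold. Adam10 was at 79.2 and 79.9 CPM against 70.1 and 76.3 CPM. Of the glycosyltransferases that tune NOTCH for its ligands, Mfng was at 30.7 and 27.6 CPM against 38.5 and 31.8 CPM and Lfng at 54.5 and 50.7 CPM against 42.2 and 34.2 CPM. Notch1 was lower, at 1.18 and 2.0 CPM against 5.28 and 6.66 CPM, and missed the minimum in both libraries. The ligand Dll4 and the target Nrarp had at most 4 UMIs in any of the sums.

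Of 16 further genes of lymphotoxin and noncanonical NF-kB signaling, 11 passed 10 CPM in each library. In WT, 3 were higher by 2-fold (Relb, Tank and Birc2), in mutant cells 2 were (Relb and Tank), and 0 were lower. The median log2 ratio was 0.90 and 0.75, beside 0.06 and 0.05 over all genes. Of all genes, 8.29% and 5.65% were higher and 5.66% and 4.22% lower by 2-fold. Relb, the transcription factor at the end of this pathway, was at 530 and 355 CPM in Ffar2-positive and 180 and 130 CPM in Ccr2-positive cDC2, a log2 ratio of 1.56 and 1.45. Tank, a TRAF-binding adaptor, was at 361 and 315 CPM against 148 and 156 CPM. Map3k14, the kinase NIK, had log2 ratios of 0.77 and 0.40, and Nfkb2, the partner of RELB, 0.18 and 0.11. In Ffar2-positive cDC2, Relb was lower in the mutant cells by a log2 ratio of −0.58, beside the fewer maturation marker UMIs given above (230 and 131 CPM), whose part was not tested.

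Most genes of the ESAM-low state were lower in Ffar2-positive cells. Of 15, 13 and 12 passed the minimum, 11 were lower by 2-fold in Ffar2-positive cells of each library and 1 was higher (Il1r2, a decoy receptor for interleukin 1, 17.8 and 17.2 CPM against 7.54 and 8.18 CPM). The median log2 ratio was −3.005 and −2.61, beside 0.06 and 0.05 over all genes. Of all genes, 5.66% and 4.22% were lower and 8.29% and 5.65% higher by 2-fold. Of these genes, 5 (Clec12a, Csf1r, Cd209a, Mgl2 and Lyz2) belong to the cDC2 markers of the gate, and Cx3cr1 was used to set aside transitional cells. Cx3cr1, a chemokine receptor, was at 19.2 and 14.3 CPM against 175 and 94.2 CPM. Clec12a was at 19.8 and 26.7 CPM against 130 and 110 CPM, Csf1r at 55.5 and 57.6 CPM against 130 and 119 CPM and Klf4, a transcription factor, at 76.4 and 75.2 CPM against 193 and 177 CPM. Cd209a (93.2 and 139 CPM), Mgl2 (2.10 and 2.36 CPM), Lyz2 (110 and 50.6 CPM), Clec10a (2.52 and 3.89 CPM), Ly6c2 (0.841 and 0.946 CPM), Cd36 (1.51 and 1.78 CPM) and Cd14 (1.60 and 2.07 CPM) in Ffar2-positive cells were the other 7. Of the 11, Clec10a, Mgl2, Ly6c2, Cd36 and Cd14 passed the minimum through the Ccr2-positive sum alone and could be called only as lower, as Il1r2 could only as higher.

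Of 18 other genes tied to the ESAM-high state, 8 of 17 past the minimum in WT and 7 of 16 in mutant cells were higher by 2-fold, and 1 and 2 were lower. The median log2 ratio was 0.56 and 0.41, beside 0.06 and 0.05 over all genes. Of all genes, 8.29% and 5.65% were higher and 5.66% and 4.22% lower by 2-fold. Higher in both libraries were Tbx21, which encodes the transcription factor T-bet (log2 ratios of 2.85 and 2.37), Cd5, an inhibitory receptor (2.66 and 2.20), Rasgrp3 (2.31 and 2.80), Relb, Id2 (1.49 and 1.35), Runx3 (1.34 and 1.04) and the gate marker Sirpa (1.03 and 1.09). Cd24a was lower in both (−3.43 and −3.06). Tbx21 and Cd5 passed the minimum through the Ffar2-positive sum alone in both libraries, and Rasgrp3 in the mutant library, and could there be called only as higher. Cd24a passed it through the Ccr2-positive sum alone. Irf4, a transcription factor of cDC2 and a gate marker, was lower by −0.55 and −1.001. Gpr183, the oxysterol receptor that positions these cells, was at 277 and 250 CPM against 287 and 282 CPM, and the growth factor receptor gene Flt3 was at 344 and 310 CPM against 412 and 386 CPM. Between genotypes, the genes of the 4 lists past 2-fold were Lyz2 (−1.11) and Ikzf3 (−1.91) in Ffar2-positive and Rasgrp3 (−1.03) in Ccr2-positive cDC2. Over all genes, 0.958% and 3.16% were past 2-fold in these gates.

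The genes most like Esam were sought over the 26 values of 13 classes in 2 libraries, by Pearson's r of log2(CPM + 5) among genes reaching 50 CPM. These were Nrbf2 and Relb (r = 0.92 each), Aebp2, Stard7, Traf2, Tbc1d4, Tcf7, Traf1, Pard3b and H2-Eb2, the last with r = 0.91. Those most like Notch2 were Plcg2 and Ttc7 (r = 0.92 each), Gm26740, Ccm2 and Gripap1 (each r = 0.88). Among the members, Dtx1 followed Clec4a4 (r = 0.85) and Cd4 (r = 0.80), whereas r was −0.37 between Notch2 and Esam. The 26 values share libraries, depth and class sizes, and these correlations are descriptions.

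The members were also compared within single cells. Among Ffar2-positive cells thinned to 5000 UMIs (1261 WT and 3123 mutant cells), the 28 pairs of members were compared by the share of cells with 1 member among cells with and without the other. The 2 intervals stood apart for 1 pair in WT and 7 in mutant cells, and the pair found in both was Dtx1 and Esam. Intervals are narrower with the larger number of mutant cells, so these counts cannot be compared between libraries. Esam was detected in 14.4% (11.5 to 17.7) of WT cells with a Dtx1 UMI and 6.77% (5.06 to 8.82) of those without, and in 10.9% (9.05 to 13.0) and 7.09% (6.03 to 8.27) of mutant cells. Of Dtx1, Esam, Cd4 and Clec4a4, 0 were detected in 22.0% and 30.1% of cells and all 4 in 1.27% and 0.768%. At this depth, a cell without a UMI cannot be called negative.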

How the data were processed

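The authors sorted live CD45.2+ CD11c+ splenocytes, made 1 droplet library of 3′ transcripts per genotype and counted UMIs with Cell Ranger 5.0.1 against the mouse genome mm10 (GRCm38). The deposited values are these raw UMI counts per gene and cell, for called cells only, with at least 500 UMIs in each. Per the labels the mice were 4 months old, whereas the general methods of the study give a younger range. Whether intronic reads were counted is not given in the sources used here.

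Cells were gated in a fixed order by the number of listed markers with a UMI. Cells with at least 3 markers of other lineages, 4 of 7 macrophage markers or 5 of 6 monocyte-like markers were set aside first. Then came 5 of 10 pDC markers, cells with Siglech and Cx3cr1 (transitional), 4 of 10 proliferation markers, 5 of 10 maturation markers, 4 of 10 cDC1 markers and less than 8% ribosomal UMIs. The rest were cDC2 with 2 of 13 cDC2 markers, split by Ffar2 and Ccr2. Proliferating cells were split at 4 of 10 cDC1 markers, so those named as without cDC1 genes could have fewer than 4. Mature cells with cDC1 markers had at least 1 of the 10. A class is a range of such counts: 1440 WT and 1409 H2-Aa cit/cit cells had 1 cDC2 marker. The members and lists were chosen with earlier results of these data known, and the gate limits were set after class sizes had been seen. No cells were removed as doublets. The 2 libraries shared 31 barcodes.

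UMIs were summed per class and library and scaled to CPM. Intervals are exact Poisson for CPM, Clopper-Pearson for shares and conditional binomial for ratios. A gene was called when it had at least 10 CPM in either sum and a log2 ratio of at least 1 or at most −1, and the share of all genes so called stands beside the members' counts. Shares of cells were computed after thinning each cell to 1500 UMIs, leaving out shallower cells (60 WT and 81 H2-Aa cit/cit Ffar2-positive, 8 and 3 Ccr2-positive). The script for ratios was checked on simulated data. Named genes are the members, list genes past 2-fold the same way in both libraries, a set of named receptors, ligands and transcription factors, and the 10 and 5 genes most like Esam and Notch2. List genes past 2-fold in 1 library or between genotypes, and the leading markers of other cells, were named after their values were seen.

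Alternatives were median-ratio scaling, the mean over cells, gates of 2 UMIs, Leiden clusters in place of gates, a mitochondrial limit of 10%, leaving out top Scrublet scores, a minimum of 50 CPM or none, thinned counts, and 3 settings chosen after seeing the data. Gene positions are from GENCODE vM21. Python 3.11.15, numpy 2.4.6, scipy 1.17.1, pandas 2.3.3, scanpy 1.11.5, leidenalg 0.10.2 and matplotlib 3.10.9 were used.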

Additional observations from a re-analysis of the deposited data

Results flagged for a closer look

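By summed UMIs, the genotype ratio of Dtx1 went opposite ways in different classes. It was higher in H2-Aa cit/cit than WT cells by a log2 ratio of 1.28 (counting interval 0.91 to 1.65) in mature cells with cDC1 markers, 1.48 (0.80 to 2.23) in monocyte-like cells and 1.05 (0.05 to 2.05) in macrophages. In these classes, in that order, 940 of 8514, 878 of 8860 and 776 of 9213 genes were higher by 2-fold, and 366, 585 and 860 were lower. Dtx1 was lower in Ffar2-positive cDC2 (−0.36), double-negative cDC2 (−0.63), low-ribosomal cells (−0.17), proliferating cells without cDC1 genes (−0.35) and mature cells with 0 cDC1 markers (−0.22). The difference between classes was not tested, since each ratio compares 1 library with 1 library. The mature class with cDC1 markers held 633 cells of the WT library and 191 of the H2-Aa cit/cit library, of which 52.8% and 6.81% lay in the same mature cluster, and cells of top doublet score made up 11.1% and 28.3%. The monocyte-like values rested on 21 and 114 UMIs of Dtx1 in 80 and 84 cells, with top doublet scores in 15% and 20.2%, and the macrophage values on 19 UMIs in each library. The part of these in the ratios was not tested.

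The genotype ratio of Hes1 was higher in Ccr2-positive cDC2 (0.91), low-ribosomal cells (0.60), mature cells with cDC1 markers (0.96) and pDC (1.54, interval 0.01 to 3.36) and lower in monocyte-like cells (−1.15). This difference was not tested either. The WT and H2-Aa cit/cit values rested on 5 and 15 UMIs in pDC and on 37 and 17 in the mature class. In thinned cells, a Hes1 UMI was found in 1 of 122 and 1 of 153 pDC. It was found in 2 of 629 and 0 of 190 of the mature class and in 13.75% and 14.3% of monocyte-like cells. The thinned ratio in Ccr2-positive cDC2 was −0.03. Thinned low-ribosomal cells kept the direction, at 1.94% and 2.78%. By 2-fold, 224 of 9020 genes were higher and 254 lower in pDC, and 878 and 585 of 8860 in monocyte-like cells.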

How the results depend on the processing

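The 6 WT members and 5 H2-Aa cit/cit members past 2-fold between the gates were the same in number under median-ratio scaling (beside 7.72% and 5.28% of all genes higher), the mean over cells (8.45% and 5.33%) and the mitochondrial limit (8.3% and 5.65%). The same held with no minimum (8.19% and 7.52%) and without top doublet scores (8.71% and 5.69%). It also held under the 3 settings chosen after seeing the data. These left out cells with 2 or more maturation markers (8.33% and 5.48%), cells with monocyte or macrophage markers (9.1% and 6.77%) or the other Ccr2-rich cluster (9.2% and 5.65%). A gate of 2 UMIs gave 6 and 6 (beside 10% and 6.74% of all genes higher), a minimum of 50 CPM 4 and 4 (7.67% and 5.75%), and thinned counts 4 and 5 (12.8% and 8.7%). Clusters in place of gates gave 3 and 4 (4.79% and 3.25%), with member medians of 0.59 and 0.76. The cluster rich in Ccr2, Mgl2 and Cd209a held 534 cells of the WT library and 2302 of the H2-Aa cit/cit library, of which 205 and 1221 came from the Ffar2-positive gate. A cDC2 cluster with more Ccr2 was left out of this comparison, and it held 33.8% and 33.0% of the Ccr2-positive gate. Between genotypes, the median in Ffar2-positive cDC2 was −0.028 under clusters, and the count stayed at 0 in every setting run. In Ccr2-positive cDC2 the count of 0 became 1 under the mean over cells, a gate of 2 UMIs and clusters (beside 4.82%, 4.36% and 2.29% of all genes called), 1 with no minimum (26.6%) and 2 with thinned counts (19.8%). It was also 1 without cells of 2 or more maturation markers, without cells of monocyte or macrophage markers and without the other Ccr2-rich cluster, settings chosen after seeing the data (3.76%, 4.84% and 6.01%). These calls concerned Hes1, Cd4, Dtx1, Esam or Ltbr by setting, and the cause was not tested. The WT Ccr2-positive gate held 139 cells, which limits every ratio against it. The members past 2-fold between the gates as reported kept their direction under each alternative run, whereas between genotypes in Ccr2-positive cDC2 every member but Notch2 had values on both sides of 0 over the alternatives. No paired analysis was possible because each genotype had 1 library.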
